A study of Mus musculus with 6 samples.

Results

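The genes described here encode the proteins of the mitochondrial ribosome. They were chosen by name: a gene was a member if a probe set with exactly 1 symbol in the platform's annotation carried a symbol starting with Mrpl or Mrps and a digit. This gave 76 of the 18193 genes on the array, read by 156 of 45037 probe sets. The rule uses symbols only. Expression was measured on Affymetrix arrays in total RNA from bone marrow of adult female mice, on 3 arrays for each of 2 first-generation crosses. One group, called AKR F1 here, came from AKR/J x FVB/NJ matings, and the other, called DBA F1, from DBA/2J x FVB/NJ matings, so both have an FVB/NJ parent. No treatment is named in the labels apart from anaesthesia with Avertin before the animals were killed, and the question was which genes differ at baseline between the crosses. Nothing in the labels ties an array to an animal or says that arrays came from separate animals, so p-values measure only the spread between these samples.

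The mitochondrial ribosome translates the few proteins encoded in mitochondrial DNA, all of them subunits of the respiratory chain and the ATP synthase. Its RNA comes from the mitochondrial genome, while all its proteins are encoded in the nucleus, made in the cytosol and imported. The small subunit binds messenger RNA and decodes it, and the large subunit joins the amino acids. Some of its proteins descend from those of bacterial ribosomes and others were added in the mitochondrial lineage. In bone marrow, red cell precursors rely on mitochondria for heme synthesis and dividing progenitors for respiration, whereas mature neutrophils hold few of them.

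All values are log2 expression values of the deposited table, and each difference is the AKR F1 mean minus the DBA F1 mean on that scale, given with its standard error (SE) from limma. A gene was read from its brightest probe set, by the mean of all 6 arrays, and passed the test at a limma adjusted p under 0.05 over all 18193 genes. The level of one probe set was not compared with that of another gene's. The arrays had medians from 5.14 to 5.19. With 3 arrays a group, precision is limited by their number. The means of the marrow cell marker lists were above these medians on every array, highest for the neutrophil list (13.70 to 13.75 in AKR F1, against 13.22 to 13.67 in DBA F1) and lowest for the T and NK cell list (6.35 to 6.51 in AKR F1, against 6.10 to 6.22 in DBA F1). In whole marrow, fewer cells of a type and less RNA per cell cannot be told apart.

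A minority of the mitochondrial ribosomal protein genes passed the test between the crosses, each with a difference of less than 2-fold. Of the 76 genes, the test called 10 higher and 4 lower in AKR F1, leaving 62 uncalled. The 14 called genes make up 18.4% of the members, against 15.2% of all genes (9.2% higher and 6.04% lower). Every member lay above the median probe set level of 5.17, and among the 11549 genes above that level 22.3% passed the same test. The members' share thus lies between these 2 backgrounds. The rises spanned 1.30-fold to 1.79-fold and the falls 1.33-fold to 1.42-fold.

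The median difference of the 76 members was 0.09, beside 0.06 over all genes. Positive differences were found in 45 members (59.2%), and in 61.1% of all genes. Among the 62 members that did not pass, the differences ran from -0.35 to 0.45, and 42 of them were within 0.2 of 0 on the log2 scale. The spread between arrays of a group was small, with a median SD of 0.10 over members and 0.13 over all genes. In 41 members (53.9%) the arrays of one group did not overlap those of the other, 28 with AKR F1 above and 13 with AKR F1 below. Over all genes the groups did not overlap in 36.7% (23.0% above, 13.7% below), and above the median level in 47.3%.

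**Figure D1:**
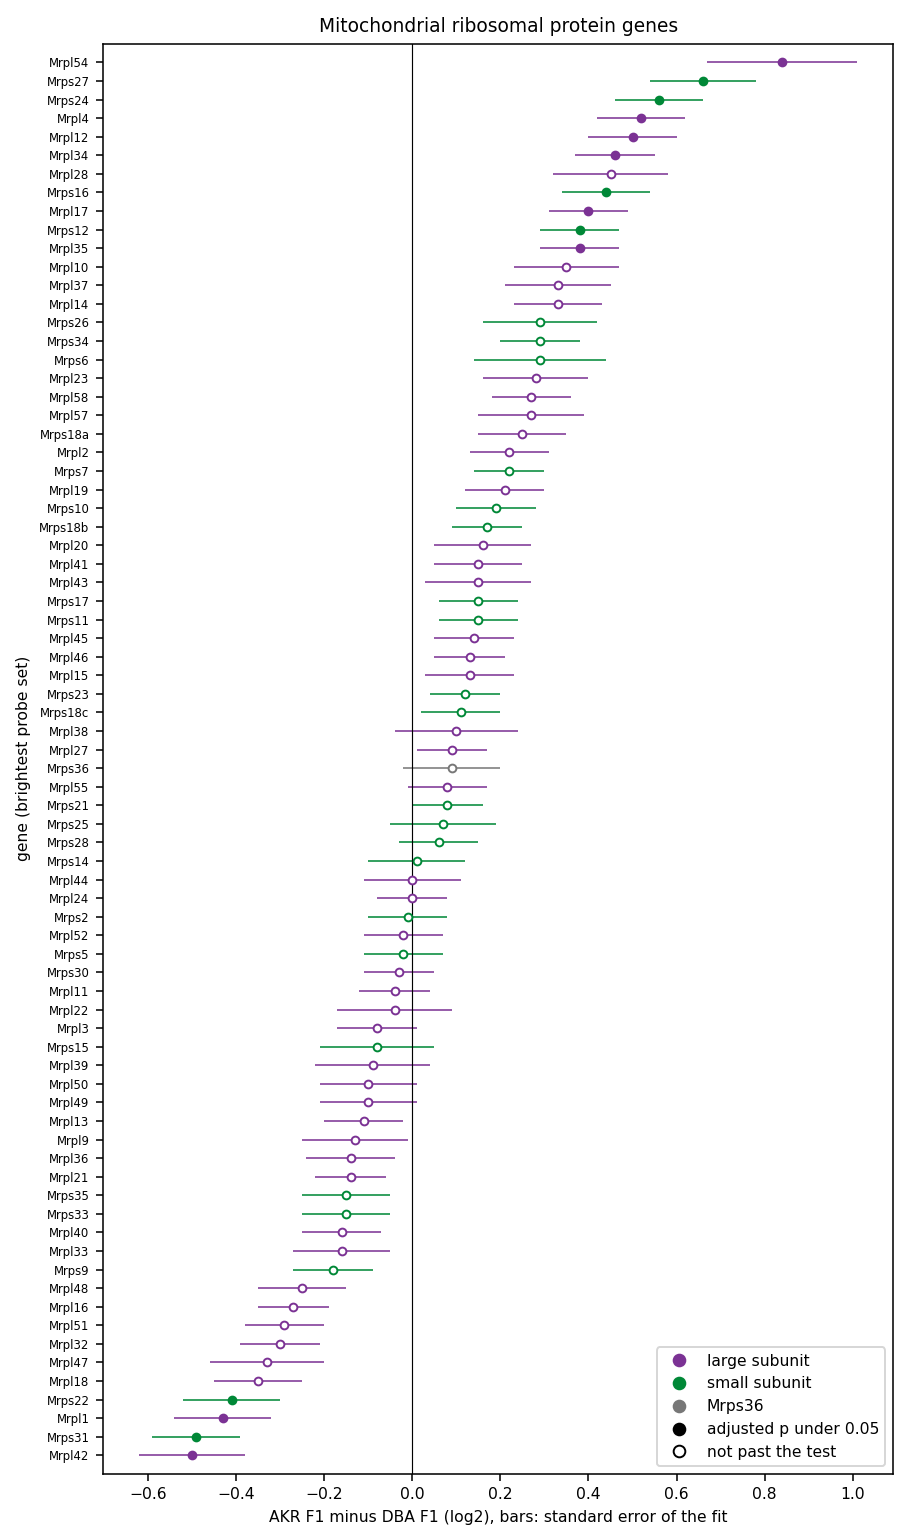
Differences of all 76 genes, AKR F1 minus DBA F1 (log2), one row per gene with limma's standard error as bars. Filled points passed the test (10 to the right of 0, 4 to the left), and large and small subunit genes are mixed along the whole range from -0.50 to 0.84.

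By subunit, 6 of 49 large subunit genes were higher and 2 lower (16.3% called, median 0.08), and 4 of 26 small subunit genes were higher and 2 lower (23.1%, median 0.12). Mrps30 and Mrps18a were counted with the large subunit, where structures of the mammalian ribosome place their proteins. Mrps36, now regarded as a protein of the oxoglutarate dehydrogenase complex, was left out of both counts and differed by 0.09. Among homologues of bacterial ribosomal proteins 8 of 45 were higher and 1 was lower, with a median of 0.09. Among proteins specific to mitochondria 2 of 30 were higher and 3 lower, also with a median of 0.09. The difference between these classes was not tested, and the shares called, 20.0% and 16.7%, both lie within the backgrounds above.

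Of the large subunit genes, Mrpl54, which encodes a protein specific to the mitochondrial ribosome, had the largest difference of all members. It was at 8.38, 8.41 and 8.52 in the AKR F1 arrays, against 7.84, 7.81 and 7.16 in the DBA F1 arrays. This is a difference of 0.84 (SE 0.17, limma adjusted p = 0.018) or 1.79-fold, and the groups are apart although DBA F1 replicate 3 lies well below the other two.

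Mrpl4, a homologue of a bacterial protein that lines the exit tunnel, was at 8.90, 8.70 and 8.73 in AKR F1, against 8.31, 8.35 and 8.13 in DBA F1 (difference 0.52, SE 0.10, limma adjusted p = 0.015). Mrpl12 encodes the homologue of the bacterial stalk protein that recruits translation factors, and its protein also binds the mitochondrial RNA polymerase. Its values were 9.75, 9.84 and 9.85 in AKR F1, against 9.39, 9.41 and 9.12 in DBA F1 (difference 0.50, SE 0.10, limma adjusted p = 0.018). All AKR F1 arrays were above all DBA F1 arrays for both genes.

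Mrpl34, Mrpl17 and Mrpl35 also encode homologues of bacterial large subunit proteins. Mrpl34 was at 9.36, 9.20 and 9.24 in AKR F1, against 8.77, 8.79 and 8.86 in DBA F1 (difference 0.46, SE 0.09, limma adjusted p = 0.014). Mrpl17 was at 9.33, 9.36 and 9.30 in AKR F1, against 8.93, 9.02 and 8.83 in DBA F1 (difference 0.40, SE 0.09, limma adjusted p = 0.022). Mrpl35 was at 9.92, 9.81 and 9.91 in AKR F1, against 9.39, 9.53 and 9.56 in DBA F1 (difference 0.38, SE 0.09, limma adjusted p = 0.026). The AKR F1 arrays of Mrpl17 were the tightest of these, with an SD of 0.03.

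The lower large subunit genes were Mrpl42 and Mrpl1. Mrpl42, specific to the mitochondrial ribosome, was at 10.12, 9.91 and 10.02 in AKR F1, against 10.42, 10.40 and 10.74 in DBA F1 (difference -0.50, SE 0.12, limma adjusted p = 0.026). Mrpl1, the homologue of the bacterial protein of the stalk beside the tRNA exit site, was at 6.37, 6.14 and 6.37 in AKR F1, against 6.54, 6.86 and 6.77 in DBA F1. The gap between the nearest arrays of the groups was narrower for Mrpl1, whose difference was -0.43 (SE 0.11, limma adjusted p = 0.038).

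Of the small subunit genes, Mrps27 and Mrps24 had the smallest p-values together with the largest rises. Mrps27 encodes an RNA-binding protein specific to the mitochondrial ribosome, and it was at 6.48, 6.42 and 6.57 in AKR F1, against 5.99, 5.90 and 5.61 in DBA F1 (difference 0.66, SE 0.12, limma adjusted p = 0.011). Mrps24 encodes the homologue of a bacterial protein at the entry of the messenger RNA channel. It was at 10, 10.11 and 10.18 in AKR F1, against 9.66, 9.49 and 9.45 in DBA F1 (difference 0.56, SE 0.10, limma adjusted p = 0.010). The groups were well apart for both genes.

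Mrps16 and Mrps12 are homologues of bacterial small subunit proteins, and that of Mrps12 sits at the decoding centre. Mrps16 was at 10.21, 10.21 and 10.25 in AKR F1, against 9.91, 9.78 and 9.64 in DBA F1 (difference 0.44, SE 0.10, limma adjusted p = 0.020). Mrps12 was at 8.58, 8.77 and 8.62 in AKR F1, against 8.38, 8.24 and 8.21 in DBA F1 (difference 0.38, SE 0.09, limma adjusted p = 0.033). The groups did not overlap for either gene.

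Mrps31 and Mrps22, both specific to the mitochondrial ribosome, were lower in AKR F1. Mrps31 was at 7.82, 7.69 and 7.62 in AKR F1, against 8.05, 8.23 and 8.32 in DBA F1 (difference -0.49, SE 0.10, limma adjusted p = 0.019). Mrps22, in which inherited mutations cause respiratory chain deficiency in humans, was at 8.34, 8.06 and 8.21 in AKR F1, against 8.44, 8.63 and 8.76 in DBA F1. Its difference of -0.41 (SE 0.11, limma adjusted p = 0.046) was the closest to the threshold among the 14.

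**Figure D2:**
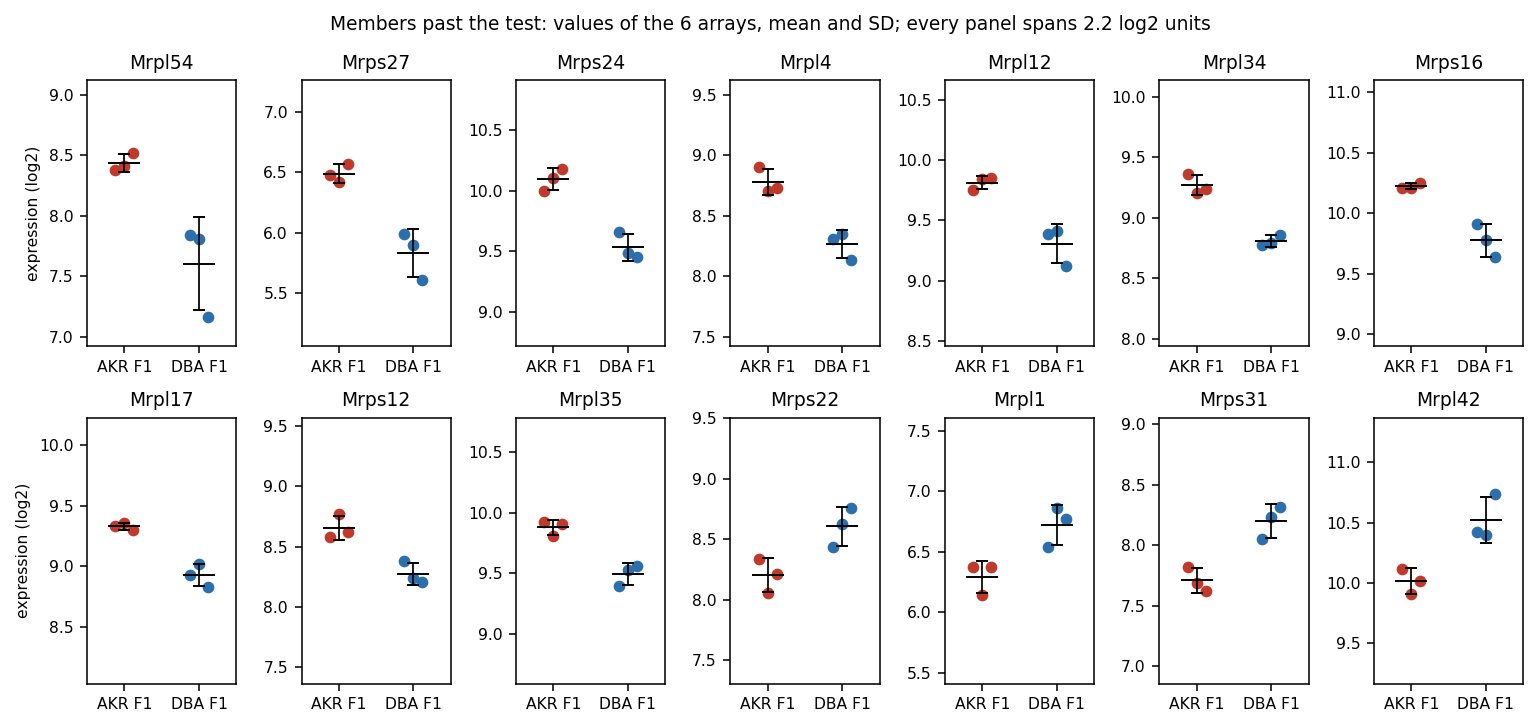
Log2 expression of the 14 genes past the test in each array, AKR F1 left and DBA F1 right in every panel, with the mean and SD of 3 arrays as black bars. The panels run from the largest rise (Mrpl54, 0.84) to the largest fall (Mrpl42, -0.50), and the groups do not overlap in any of the 14.

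Just outside the threshold lay Mrpl18 and Mrpl28, homologues of bacterial large subunit proteins, and Mrpl51, specific to mitochondria. Mrpl18 was at 9.42, 9.17 and 9.38 in AKR F1, against 9.66, 9.75 and 9.59 in DBA F1 (difference -0.35, limma adjusted p = 0.052). Mrpl28 was at 9.47, 9.66 and 9.58 in AKR F1, against 9.09, 9.38 and 8.89 in DBA F1 (difference 0.45, limma adjusted p = 0.052). Mrpl51 was at 10.67, 10.74 and 10.71 in AKR F1, against 10.91, 11.06 and 11.04 in DBA F1 (difference -0.29, limma adjusted p = 0.053). The groups do not overlap for these 3 genes either.

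The calls depended on single arrays. With 1 array left out, 5 members passed without AKR F1 replicate 1, 2 without AKR F1 replicate 2 and 0 without AKR F1 replicate 3, where 23 had an unadjusted limma p under 0.05. Without DBA F1 replicates 1, 2 and 3 the counts were 19, 9 and 12. The calls over all 18193 genes moved too, from 2771 with all arrays. They numbered 1396, 685 and 793 without AKR F1 replicates 1, 2 and 3, and 3248, 1585 and 2147 without those of DBA F1. How many of all genes had an unadjusted p under 0.05 is not given here. None of the 14 genes passed in all 6 of these fits, and all 14 passed in at least 1. Mrps27 and Mrpl34 passed in 5 fits, Mrps24 and Mrpl12 in 4, and Mrpl1, Mrps12 and Mrps22 in 1 each. DBA F1 replicate 3 was the DBA F1 array farthest from AKR F1 in 11 of the 14 called members (78.6%), against 61.3% of all called genes. Over all 76 members it was so in 40 (52.6%), against 42.9% of all genes. The sign of the 14 called members in these fits says nothing more, because groups that do not overlap keep their sign with any 1 array left out.

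Control probe sets and marker lists also separated the groups. The mean 3' minus 5' difference of control transcripts, a measure of RNA integrity and labelling, was 1.254, 2.025 and 1.796 in AKR F1, against 1.227, 1.091 and 1.029 in DBA F1. The hybridization controls averaged 10.411, 10.558 and 10.613 in AKR F1, against 10.963, 11.334 and 11.037 in DBA F1. The mean of 10 skeletal muscle genes, 8 of them lower in AKR F1, was 7.56, 8.19 and 6.88 in AKR F1, against 11.77, 8.97 and 10.06 in DBA F1. Muscle is rich in mitochondria, and the part of muscle RNA in the member genes cannot be told apart from that of the cross. None of the 3 measures overlapped between the groups, although the 3' to 5' values of both replicates 1 were close.

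With each of these measures as a covariate no member passed limma, while 11, 8 and 18 members had an unadjusted p under 0.05 with a covariate for the 3' to 5' index, for hybridization controls and for muscle, in that order. All 14 called members kept their sign in the 3 fits, and the members' standard errors were larger by median factors of 1.65, 2.58 and 1.91. The differences moved too, by over 1.5 times in some genes. Mrpl1 differed by -0.25, -0.16 and -0.78 in these fits, against -0.43 without a covariate, and Mrps22 by -0.17, -0.41 and -0.64, against -0.41. Mrpl42 differed by -0.32 with the index and -0.76 with the hybridization controls, Mrps12 by 0.23 with the index, and Mrpl35 by 0.23 with the muscle mean. Mrpl4 stayed closer to its 0.52, at 0.63, 0.52 and 0.51. Few genes of any kind passed in these fits, 21, 1 and 48 of all 18193. How many of all genes had an unadjusted p under 0.05 is not given here, so the members' counts have no background.

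Lists of marrow cell markers moved less. The erythroid list, with 3 of 8 measured genes higher and none lower, averaged 11.14 to 11.16 in AKR F1, against 10.79 to 10.99 in DBA F1. The T and NK cell list (2 of 5 higher) and the neutrophil list (1 of 9 higher) did not overlap between the groups either. The B cell, monocyte and macrophage, megakaryocyte and proliferation lists overlapped between the groups, with 1 higher and 2 lower of 7, 1 higher of 5, 1 higher of 4 and none of 7. The part of cell composition in the member genes was not tested.

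**Figure D3:**
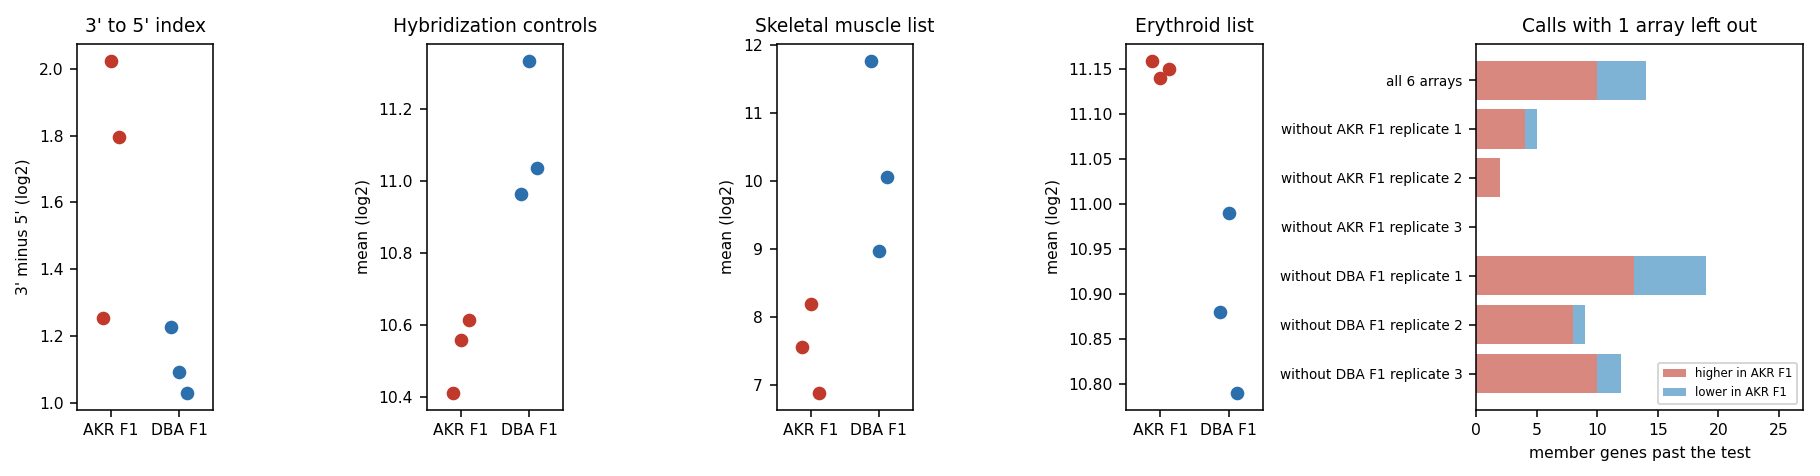
Log2 values of each array (AKR F1 left, DBA F1 right) for the hybridization controls, the 3' to 5' index and the means of the muscle and erythroid lists, and, in the right panel, the number of member genes past the test with all 6 arrays or 1 left out. None of the first 4 measures overlaps between the groups, and the count of calls ranges from 0 without AKR F1 replicate 3 to 19 without DBA F1 replicate 1.

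A further check comes from genes with several probe sets. Of the 76 genes 34 had 1 probe set and 42 had more, up to 8 for Mrpl15, and in 24 of these 42 all probe sets had differences of one sign. Of all 156 probe sets 15 passed the probe set test (9.62%), 11 higher and 4 lower, against 12.3% of all 45037 (5.57% higher and 6.73% lower). Among them were the brightest probe sets of 13 of the 14 called genes. That of Mrps22 did not pass in this test (limma adjusted p = 0.055). Of the 14 called genes 6 had a single probe set, Mrpl4, Mrpl12, Mrps12, Mrps16, Mrps22 and Mrps27, so no second reading exists for them. The other 8 had 11 further probe sets, of which none passed, 8 had the sign of the brightest one and 7 lay below 5.17.

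The 4 brighter ones bear more on the calls. The second probe set of Mrps24 was 8.94 ± 0.08 on average in AKR F1 arrays, against 8.79 ± 0.26 in DBA F1 arrays (SD, n = 3 each), and differed by 0.15 (limma adjusted p = 0.53), well short of the 0.56 of the brightest. That of Mrpl34 (mean 5.51) differed by 0.27 and that of Mrpl1 (mean 6.35) by -0.24. That of Mrpl17 (mean 5.68) differed by -0.09, against 0.40 at its brightest probe set. None of these 4 passed. Both probe sets of Mrps24 and the only one of Mrps12 carry a suffix that marks probes shared by several transcripts. They may therefore read related sequences. Whether sequence differences between the strains lie under the probes was not examined.

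Probe sets other than the brightest passed in Mrpl28 and Mrpl48. For Mrpl28 the second probe set, at 9.39, 9.48 and 9.54 in AKR F1, against 9.09, 9.10 and 8.91 in DBA F1, differed by 0.43 (limma adjusted p = 0.024). This is close to the 0.45 of the brightest, whose DBA F1 arrays were more spread. The third probe set of Mrpl28, with a mean of 8.75, differed by 0.20 (limma adjusted p = 0.31), and its groups overlapped. For Mrpl48, specific to the mitochondrial ribosome, a dim probe set at 4.21, 4.22 and 4.18 in AKR F1, against 4.50, 4.59 and 4.58 in DBA F1, differed by -0.35 (limma adjusted p = 0.030), and the brightest by -0.25 without passing. The remaining probe set of Mrpl48, with a mean of 8.43, differed by only -0.02 (limma adjusted p = 0.94). In Mrpl51 the second probe set differed by 0.44, opposite to the -0.29 of the brightest, and neither passed.

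**Figure D4:**
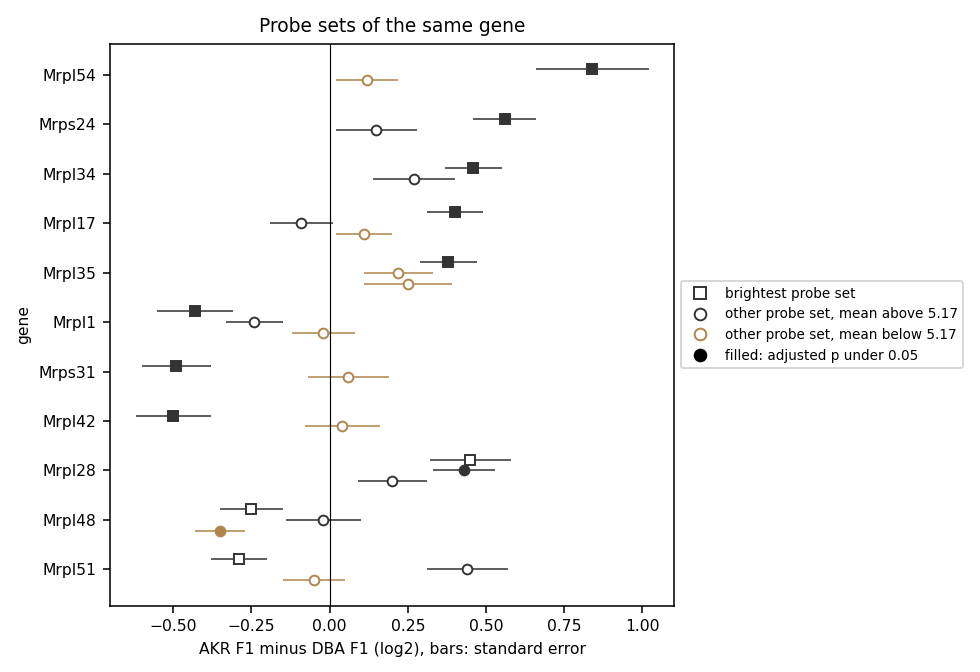
Differences of every probe set, AKR F1 minus DBA F1 (log2) with standard errors, for the 8 called genes with more than 1 probe set and for Mrpl28, Mrpl48 and Mrpl51. Squares are the brightest probe sets, colour marks means above or below 5.17, and filled symbols passed; in the called genes only the squares are filled.

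Genes beside the members on the chromosomes were read from the same fit. The members lie on 17 chromosomes and the called ones on 9. Of the 28 measured genes that flank the 14 called members, 8 passed (28.6%), 6 of them in the member's direction, while 17 of 124 genes flanking the other members passed (13.7%). Over all genes 15.2% passed, and 22.3% of the brighter ones. The difference between the flanking genes of called and other members was not tested. Mrpl54 on chromosome 10 was flanked by Matk, higher by 0.50, and Apba3, higher by 0.63 (limma adjusted p = 0.020 and 0.010). Mrpl12 on chromosome 11 was flanked by Hgs, higher by 0.52, and Slc25a10, a mitochondrial dicarboxylate carrier, higher by 0.62 (limma adjusted p = 0.038 and 0.020). These neighbours were named after their values were seen.

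Promoters were examined because genes of the mitochondrial ribosome are known to share binding motifs of NRF1, of ETS factors such as GABPA, and of YY1. RefSeq windows of 250 bases before to 50 after the start (GRCm38.p6) were found for 67 of the 76 genes, 73 windows in all. Searched on both strands, the NRF1 motif (GCGCA and GCGC with 1 base between) was in 16.4% of them against 4.6% of all 32851 windows, the ETS motif CCGGAAG in 34.2% against 8.86%, and the YY1 motif AANATGGCG in 15.1% against 2.38%. No member window held matches of different motifs that overlap. At least 1 motif was in 8 of 9 windows of higher members, 2 of 4 of lower members and 30 of 60 of the others, against 14.2% of all windows. The 9 windows belong to 8 of the 10 higher genes, Mrps16 having a pair of them and Mrpl4 and Mrpl54 none, and the difference between these shares was not tested.

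Promoters of 2 members higher in AKR F1 and 2 lower are shown to compare these windows, 5′ to 3′ on the strand of the gene, with motif matches in capitals. Mrps27 (chr13:99344536-99344835, plus strand) has an ETS match on the opposite strand from base -48 and a YY1 match from base 15, counted from the start. Every YY1 match holds an ATG, because the motif does. Mrpl12 (chr11:120484387-120484686, plus strand) has an NRF1 match on the opposite strand from -81, so the capitals there are the reverse complement of the motif, as for the ETS match of Mrps27. Mrpl42 (chr10:95501900-95502199, minus strand) has a YY1 match from 28, and Mrps31 (chr8:22411090-22411389, plus strand) has none of the 3.
Mrps27: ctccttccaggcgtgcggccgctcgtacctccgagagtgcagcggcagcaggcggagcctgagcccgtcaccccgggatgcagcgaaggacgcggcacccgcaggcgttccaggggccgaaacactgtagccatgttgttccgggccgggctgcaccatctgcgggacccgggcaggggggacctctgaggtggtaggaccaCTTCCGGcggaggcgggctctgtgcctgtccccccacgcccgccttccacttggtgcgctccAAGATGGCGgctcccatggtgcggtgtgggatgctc
Mrpl12: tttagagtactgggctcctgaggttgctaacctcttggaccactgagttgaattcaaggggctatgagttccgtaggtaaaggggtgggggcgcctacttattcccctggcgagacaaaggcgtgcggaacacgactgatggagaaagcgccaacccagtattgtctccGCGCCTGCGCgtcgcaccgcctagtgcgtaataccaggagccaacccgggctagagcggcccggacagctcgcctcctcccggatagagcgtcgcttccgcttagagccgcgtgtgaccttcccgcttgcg
Mrpl42: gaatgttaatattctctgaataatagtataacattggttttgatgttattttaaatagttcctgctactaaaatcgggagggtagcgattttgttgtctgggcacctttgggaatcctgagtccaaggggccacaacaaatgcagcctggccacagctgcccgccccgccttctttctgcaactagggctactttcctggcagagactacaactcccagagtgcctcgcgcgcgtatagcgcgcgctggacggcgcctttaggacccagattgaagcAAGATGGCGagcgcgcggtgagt
Mrps31: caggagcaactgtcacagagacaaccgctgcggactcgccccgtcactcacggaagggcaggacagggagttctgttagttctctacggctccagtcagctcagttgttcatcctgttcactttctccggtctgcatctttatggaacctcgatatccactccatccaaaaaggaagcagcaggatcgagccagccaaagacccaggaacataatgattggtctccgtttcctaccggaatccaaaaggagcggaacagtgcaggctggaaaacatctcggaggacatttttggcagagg

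Other genes were read from 6 lists chosen by function, with 74 of 79 genes measured. The lists cover the wider translation machinery of mitochondria, mitochondrial transcription and DNA maintenance, and nuclear regulators of mitochondrial genes. Of the 74 genes 10 were higher and 8 lower in AKR F1 (24.3% called, median -0.01), beside 15.2% of all genes and 22.3% of the brighter ones. Leaving out AKR F1 replicate 1, 2 or 3 gave 9, 6 or 6 calls, and leaving out DBA F1 replicate 1, 2 or 3 gave 21, 7 or 10. Over all genes the same fits called 1396, 685 and 793, then 3248, 1585 and 2147, against 2771 with all arrays. Ptcd3, Pars2, Mtif2, Mterf3, Tfb2m and Gabpa passed in all 6 fits with 1 array left out, Rpusd3 in 4, and the other called genes in 2 or fewer.

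Of 4 measured ribosomal proteins under other symbols, Dap3, a GTP-binding protein of the small subunit, was higher by 0.39 (limma adjusted p = 0.031). Ptcd3, an RNA-binding protein of the small subunit, was at 8.58, 8.67 and 8.73 in AKR F1, against 9.13, 9.17 and 9.28 in DBA F1. Its difference of -0.53 (limma adjusted p = 0.0096) was past the threshold with any 1 array left out, as that of no member was.

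Of 16 mitochondrial aminoacyl-tRNA synthetases, which charge the tRNAs, Pars2, Cars2 and Vars2 were higher by 0.65, 0.57 and 0.41 and Iars2 differed by -0.37. With 1 array left out Cars2 and Vars2 passed in 2 of 6 fits and Iars2 in 0. Pars2 was at 7.04, 7.04 and 6.92 in AKR F1, against 6.48, 6.21 and 6.38 in DBA F1, clear of overlap (limma adjusted p = 0.0074). Of 10 translation factors, the initiation factor gene Mtif2 differed by -0.69 (7.36, 7.47 and 7.71 in AKR F1, against 8.19, 8.30 and 8.11 in DBA F1, limma adjusted p = 0.0089). The elongation factor gene Tufm was higher by 0.50 (limma adjusted p = 0.045). Mtif2 and Tufm thus differed in opposite directions.

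Of 22 genes of ribosome assembly and rRNA modification 3 were higher and 2 lower. Mterf3, which acts in mitochondrial transcription and ribosome assembly, differed by -0.59 (limma adjusted p = 0.0080). Rpusd3, a pseudouridine synthase gene, Eral1, a chaperone gene of the small subunit RNA, and Mrm1, a methyltransferase gene of the large subunit RNA, were higher by 0.42, 0.45 and 0.43. Tfb1m, a methyltransferase gene of the small subunit RNA named here after its values were seen, differed by -0.52. Of 12 genes of mitochondrial transcription and DNA maintenance 2 passed, both lower. Tfb2m, a transcription factor of the mitochondrial promoters, differed by -0.74 (limma adjusted p = 0.010) and Ssbp1, which binds single-stranded DNA, by -0.44 (limma adjusted p = 0.029).

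Among 10 nuclear regulators of mitochondrial genes, Nrf1, Esrra and Gabpa passed. Nrf1, a transcription factor of many genes of respiration, was at 7.50, 7.70 and 7.69 in AKR F1, against 7.30, 7.23 and 7.11 in DBA F1 (difference 0.42, limma adjusted p = 0.026). Esrra, a nuclear receptor, was higher by 0.47 (limma adjusted p = 0.043). Gabpa, an ETS factor, went the other way, at 8.75, 8.73 and 8.77 in AKR F1, against 9.32, 9.28 and 9.28 in DBA F1 (difference -0.54, limma adjusted p = 0.0068). With 1 array left out Nrf1 passed in 2 fits and Esrra in 1.

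**Figure D5:**
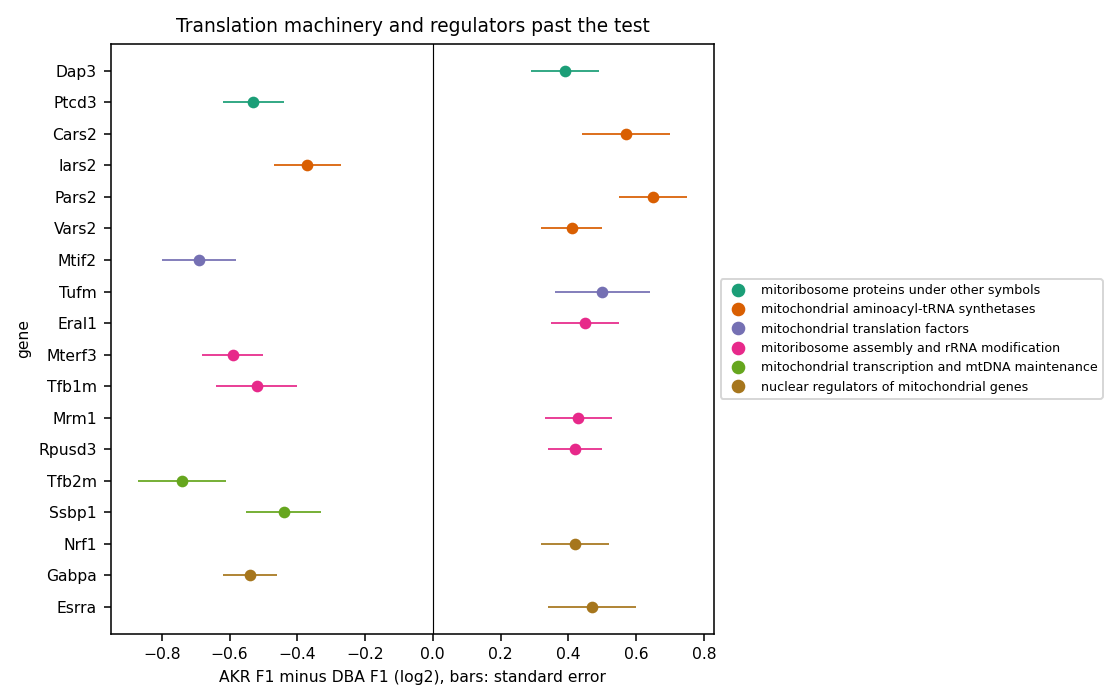
Differences of the 18 genes past the test in the 6 lists of translation machinery, mitochondrial transcription and regulators, AKR F1 minus DBA F1 (log2) with standard errors, coloured by list. The 10 genes to the right of 0 reach 0.65 (Pars2) and the 8 to the left reach -0.74 (Tfb2m).

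For comparison, of 82 genes of the respiratory chain and ATP synthase, which hold the partners of the proteins made on this ribosome, 12 were higher and 1 was lower (15.9% called, median 0.07). Of 56 cytosolic ribosomal protein genes 2 were higher and none was lower (3.57%, median 0.03). The differences between these counts and that of the mitochondrial ribosomal protein genes were not tested.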

How the data were processed

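Expression in 6 bone marrow samples was measured on Affymetrix arrays, 1 per sample, in Trizol-extracted total RNA, per the labels' protocols. Values in the deposited table are log2 expression, from 2.26 to 14.88, on which the authors' arrays have nearly equal quartiles. RMA and MAS5 appear, per the submitters' processing notes, with neither role nor version. The tool behind the table, the genome build and scan batches are not given in the sources used here. Of the probe sets 64 controls were left out, 34945 of the other 45037 had 1 symbol, 932 several (4 of them with a member) and 9160 none.

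AKR F1 minus DBA F1 was tested with limma 3.58.1 (R 4.3.3; lmFit and eBayes, 4 residual degrees of freedom, two-sided, Benjamini-Hochberg over all genes or all probe sets). The test was tried on simulated data with known changes and independent noise, which lacked the differences in controls and muscle RNA seen here. Groups came from the sample titles. The members and lists were chosen with earlier results of these data known. Named members were those past the test, those with another probe set past it and the 3 nearest above the threshold, and up to 4 genes of each pathway list. Chromosomes, gene order and promoters came from RefSeq tables of GRCm38.p6 by gene ID. For the 3' to 5' index, 5' values of actin, Gapdh and 4 poly-A spikes were subtracted from their 3' values and averaged. Replicate numbers were not treated as pairs: deviations of same-numbered arrays correlated at 0.006, -0.06 and 0.073. Alternatives were other scaling, a filter on dim probe sets, other variance models and weights, covariates, a replicate block, leaving out each array, averaging all probe sets per gene and a threshold of 0.01. No sample column was left unused.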

Additional observations from a re-analysis of the deposited data

How the results depend on the processing

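The count of 14 member genes stayed within 1.5 times its value under quantile normalization (16), median centring (14), the filter on dim probe sets (21, with fewer genes tested), a variance trend with robust estimation (17), the replicate block (11) and averaging of all probe sets per gene (15). Of the 14 genes, 13, 14, 14, 14, 10 and 9 passed in these. Averaging leaves the differences of the 6 called genes with 1 probe set as they were. Of the 8 with more, Mrpl34, Mrpl54 and Mrps24 passed with averaging. Mrpl1, Mrpl17, Mrpl35, Mrpl42 and Mrps31 did not. Array weights called 23 genes and 25 probe sets, beside 4149 of all genes and 7571 of all probe sets. The settings named before array weights called 3023, 2514, 2958, 2772, 2357 and 2931 of all genes, in that order. The main fit called 2771, and the dim filter tested 11549 genes. At a threshold of 0.01 limma called 0 member genes, 0 member probe sets and 5 of the other pathway genes, where 31, 45 and 34 had an unadjusted p under 0.05. Of all genes 526 passed at 0.01, and of all probe sets 1214. With a covariate (3' to 5' index, hybridization controls or muscle mean) all 3 counts were 0 in limma. Unadjusted p under 0.05 was then found in 11, 8 and 18 member genes, 19, 8 and 22 member probe sets and 13, 7 and 20 other pathway genes. Of all genes 21, 1 and 48 passed limma with these covariates. The share of all genes with an unadjusted p under 0.05 is not given here for any fit. With 1 array left out, the count of member genes ranged from 0 to 19, that of member probe sets from 0 to 18 (15 with all arrays; leaving out AKR F1 replicates 1, 2 or 3 gave 9, 2 or 0, the last with 30 at an unadjusted p under 0.05, and leaving out DBA F1 replicate 2 gave 7) and that of the other pathway genes from 6 to 21. The median difference of the members stayed between 0.05 and 0.14 in the alternatives run. With the replicate block, 11 member probe sets and 16 other pathway genes passed. Among 18 named members and 306 values under the alternatives, 1 changed sign: Mrpl51 was at 0.03 with the mean of its probe sets. Many of these values could not change sign. The dim filter, the variance trend, the replicate block and the stricter threshold leave each difference as it was. The groups of the 18 genes do not overlap, which fixes the sign with 1 array left out. The limits are 3 arrays per group, no second probe set for many genes, and controls that separate the groups.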
